A study of Homo sapiens with 17 samples.

Results

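U5 small nuclear RNA (U5 snRNA) is made in human cells from a small family of genes, and the 5 genes described here are those whose symbol reads RNU5, a letter from A to F and the ending -1. They are RNU5A-1, RNU5B-1, RNU5D-1, RNU5E-1 and RNU5F-1, 5 of the 14538 genes in both tables of the study. All 5 passed the filter on low values in untreated cells, a mean normalized count of at least 10, where a normalized count is a read count divided by 1 size factor per library. The rule for members is the symbol alone, and it was set with earlier results of these data known.

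U5 snRNA is the RNA of the U5 particle, which enters the spliceosome together with U4 and U6 and stays there through both catalytic steps of splicing. Its conserved loop holds the exon ends next to each other, and its Sm site binds the ring of Sm proteins that matures the particle in the cytoplasm. RNA polymerase II (Pol II) transcribes these short genes, whose RNAs have no introns and no poly(A) tails, and the Integrator complex cleaves the nascent snRNA downstream of its mature end. INTS1 is the large scaffold subunit of Integrator, and INTS8 is a subunit that joins Integrator to a phosphatase.

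The 17 libraries are stranded total RNA depleted of ribosomal RNA from HEK293T, a human embryonic kidney cell line. Both alleles of INTS1 carry a miniAID tag in the INTS1-AID line, which lets auxin direct the tagged protein to degradation. Untreated INTS1-AID cells (3 libraries) are set against untreated parental cells (3). The other groups are all INTS1-AID: 500 µM auxin for 4 h (3), against no auxin at that time (2), and 500 µM auxin for 12 h (3), against no auxin at that time (3). Auxin was given to INTS1-AID cells alone, so an effect of auxin itself and an effect of INTS1 loss cannot be told apart. The labels do not say whether INTS1-AID is 1 clone, or whether replicates are separate cultures, so p-values measure only the spread between these libraries. A degron acts on protein, so the level of INTS1 RNA checks nothing about the labels. INTS1 itself had a log2 change of -0.18 ± 0.06 (SE) after 4 h (adjusted p = 0.0123) and -0.16 ± 0.12 after 12 h (adjusted p = 0.278) per the authors' deposited table.

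The 6 untreated libraries held 26294938 to 39321998 reads in genes, and 926 to 1935 of these reads lay in the 5 U5 genes. For the 11 libraries of the auxin series only the authors' fold changes, p-values and mean counts were used, so their depth is unknown. Of 12 marker genes of embryonic kidney, adrenal and neural cells, 11 passed the filter, with summed normalized counts of 7066 to 7382 in INTS1-AID and 6890 to 7793 in parental libraries. Within that list EYA1 was lower in INTS1-AID than in parental cells, at -1.69 ± 0.13 on the log2 scale (SE, limma adjusted p = 0.00587), and NEFL was higher, at 0.43 ± 0.08 (limma adjusted p = 0.0353). Of 5 blood markers 2 were in the table, with summed counts of 146 to 174 in INTS1-AID and 138 to 150 in parental libraries. Of 3 fibroblast markers 0 were there, and of 3 colon markers 1, CDX2, with 934 to 1011 in INTS1-AID and 884 to 1125 in parental libraries. Parental library 3 stood apart. Its deviation from the gene means rose with GC content (Spearman's rho = 0.70 across 13281 genes, which are not independent replicates), whereas the other 5 libraries had rho from -0.45 to -0.15. The U5 log2 changes between the untreated lines are given with and without it. Most other untreated results include it, among them levels per length, marker sums, calls of other genes and the likeness ranking.

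By the GENCODE v29 transcripts, RNU5A-1, RNU5B-1 and RNU5D-1 were 116 bases long, RNU5E-1 120 and RNU5F-1 117, and GC content was lowest in RNU5F-1 (35.0%) and highest in RNU5A-1 (41.4%).

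Over the whole RNA the closest pair was RNU5A-1 and RNU5B-1, identical at 109 of 116 aligned positions (94.0%), and the least alike were RNU5D-1 and RNU5F-1 (79.0%). RNU5D-1 and RNU5E-1 shared an unbroken identical run of 65 bases. These runs bear on the counts, since a read that falls inside one cannot be placed. Of all 30-base windows, 29 of 87 in RNU5A-1, 34 of 87 in RNU5B-1, 36 of 87 in RNU5D-1, 36 of 91 in RNU5E-1 and 9 of 88 in RNU5F-1 occurred in another member as well. Beyond the members, 91 of 91 windows of RNU5E-1 occurred in AL021155.2, a long noncoding RNA gene that overlaps it. RNU5E-1 therefore has no window of its own, and whether the authors' counting included AL021155.2 is not given. The sources used here do not give how the authors placed such reads, so all values of single U5 genes are uncertain by the reads that the copies share.

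**Figure D1:**
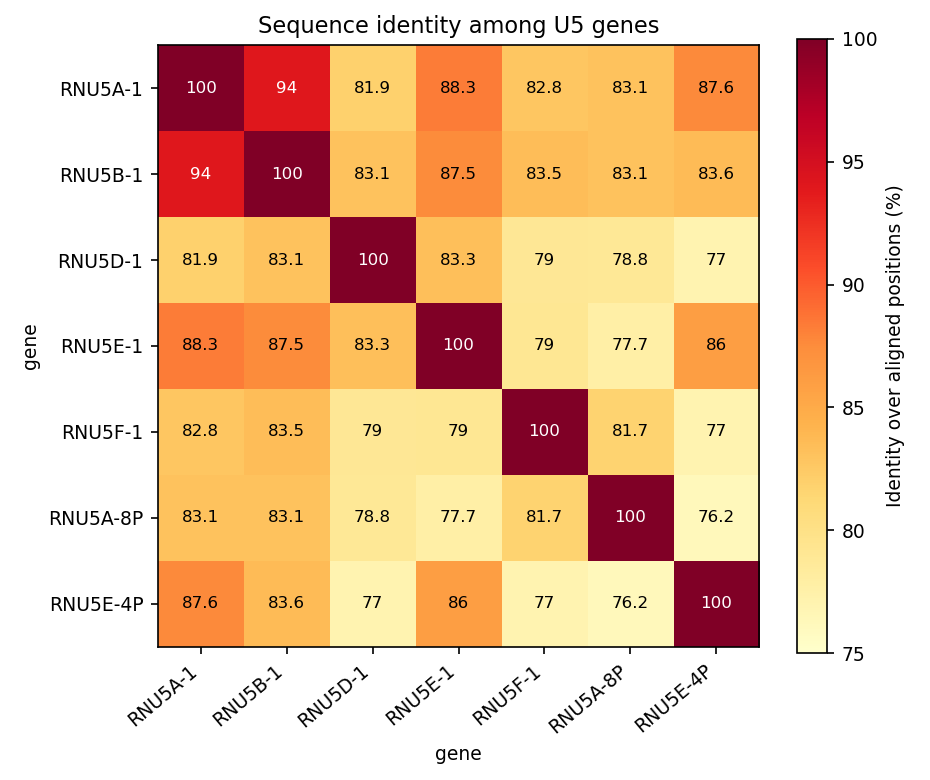
Percent identity over aligned positions between each pair of the 5 U5 genes and 2 annotated U5 pseudogenes, RNU5A-8P and RNU5E-4P, with genes on both axes and the value in each cell. RNU5A-1 and RNU5B-1 form the closest pair at 94.0%.

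RNU5A-1 lies on the plus strand of chromosome 15 (hg38), inside an intron of PARP16, which runs on the opposite strand. RNU5B-1 is 8510 bases further on, on the same strand, and lies between genes. RNU5F-1, on the minus strand of chromosome 1, lies opposite to an intron of ARMH1, and RNU5D-1 lies 9152 bases away on the same strand, between ARMH1 and KIF2C. RNU5E-1, on the plus strand of chromosome 1, overlaps exons of the same-strand long noncoding RNA AL021155.2, which is not analysed here. PARP16 had a log2 change of 0.18 ± 0.12 (implied SE; adjusted p = 0.269) after 4 h and -0.16 ± 0.13 (adjusted p = 0.355) after 12 h per the authors' deposited table. ARMH1 had 0.58 ± 0.90 (adjusted p = 0.663) and 0.79 ± 0.59 (adjusted p = 0.284) per the authors' deposited table. The strand setting of the counting is not given, so reads from the opposite partner's intron over a U5 gene cannot be told from reads of that gene. Reads of RNU5E-1 and of the AL021155.2 exons over it share strand and sequence, and cannot be told apart on any setting.

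In untreated cells all 5 genes were expressed at levels of the same order. RNU5A-1 had 360, 486 and 514 normalized counts in INTS1-AID libraries 1, 2 and 3, against 323, 418 and 250 in parental libraries 1, 2 and 3. The lines overlapped, and the highest values were those of INTS1-AID libraries 2 and 3. RNU5B-1 had 225, 350 and 289 in INTS1-AID libraries, against 234, 288 and 142 in parental ones. Parental library 3 was the low one, and INTS1-AID library 1 lay below parental library 1. RNU5D-1 had 178, 271 and 237 in INTS1-AID libraries, against 212, 239 and 167 in parental ones, and the lines overlapped. RNU5E-1 had 310, 459 and 436 in INTS1-AID libraries, against 375, 469 and 433 in parental ones, and here parental library 3 was not low. RNU5F-1 had 268, 242 and 340 in INTS1-AID libraries, against 247, 253 and 50.6 in parental ones. Parental library 3 lay far below the other 5 libraries for RNU5F-1, and without it the lines overlapped closely.

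Per length, RNU5A-1 averaged 391 ± 71 normalized counts per 100 bases in INTS1-AID cells and 284 ± 73 in parental cells (SD, n = 3 each). RNU5E-1 averaged 335 ± 67 in INTS1-AID and 355 ± 40 in parental cells, and RNU5B-1 averaged 248 ± 54 in INTS1-AID and 191 ± 64 in parental cells. RNU5F-1 averaged 242 ± 43 in INTS1-AID and 157 ± 99 in parental cells, and RNU5D-1 averaged 197 ± 41 in INTS1-AID and 177 ± 31 in parental cells. RNU5A-1 and RNU5E-1 were the highest pair in all 6 libraries, and the gap between their means was smaller than the SD of RNU5A-1 in both lines. Within single libraries, RNU5A-1 lay above RNU5E-1 in every INTS1-AID library and below it in every parental library. RNU5E-1 stood above RNU5B-1 by more than the SD of either gene in both lines. RNU5B-1 and RNU5F-1 differed by less than their spread, and RNU5F-1 and RNU5D-1 did so in parental cells but not in INTS1-AID cells. The lowest gene was RNU5D-1 in 4 libraries and RNU5F-1 in 2.

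No U5 gene was called between the untreated lines with limma on log2(normalized count + 1) at a Benjamini-Hochberg adjusted p under 0.05. Of all 13293 genes tested, 295 were called (2.22%), so 0 of 5 members stands beside a small background, and 0 of 5 had an unadjusted p under 0.05. edgeR and DESeq2 on the recovered reads also called 0 of 5. RNU5A-1 had a log2 change of 0.47 for INTS1-AID over parental cells (95% interval -0.01 to 0.96, limma adjusted p = 0.298). RNU5B-1 had 0.42 (-0.21 to 1.04, adjusted p = 0.431), RNU5D-1 0.15 (-0.30 to 0.60, adjusted p = 0.694) and RNU5E-1 -0.10 (-0.48 to 0.29, adjusted p = 0.761). RNU5F-1 had the widest interval, 0.93 (-0.38 to 2.23, adjusted p = 0.407). Fold changes on this scale understate changes of low genes, but for RNU5F-1 a pseudocount of 0.1 also gave 0.93. On the recovered reads RNU5F-1 had lower log2 changes, 0.61 with edgeR and 0.62 with DESeq2.

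Parental library 3 set much of those differences. Its normalized count relative to the mean of parental libraries 1 and 2 was 0.675 for RNU5A-1, 0.543 for RNU5B-1, 0.739 for RNU5D-1, 1.03 for RNU5E-1 and 0.202 for RNU5F-1, where the median of all tested genes was 1.003. Without it the log2 change was 0.29 for RNU5A-1, 0.13 for RNU5B-1, 0.0019 for RNU5D-1, -0.08 for RNU5E-1 and 0.16 for RNU5F-1. With each library's GC trend removed, RNU5F-1 had 0.75 and RNU5A-1 0.38 on the log2 scale. Again 0 of 5 genes were called in either case.

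**Figure D2:**
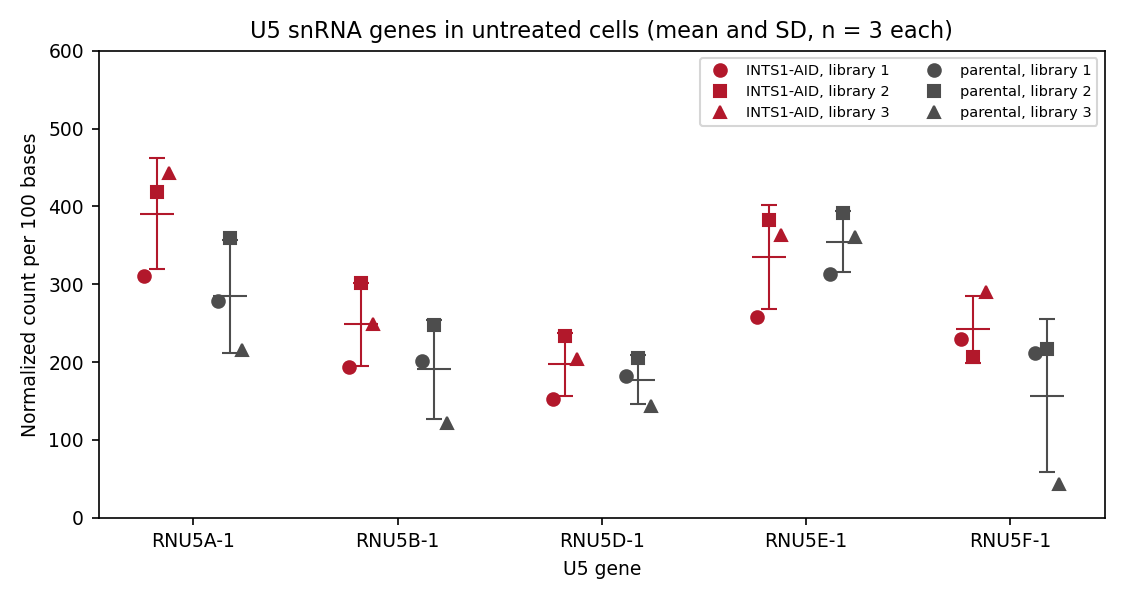
Normalized counts per 100 bases (vertical axis) of each U5 gene (horizontal axis) in untreated INTS1-AID libraries (red, left of each pair) and parental libraries (grey, right), with each library as a point and the mean with its SD. The lines overlap for all 5 genes, and parental library 3 is the lowest point for RNU5F-1 at 43.3.

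After 4 h of auxin 4 of the 5 U5 genes rose per the authors' deposited table at an adjusted p under 0.05, where 19.2% of the 14479 genes tested rose. All 5 fold changes were above 1, from 1.28 to 2.21, and the median log2 change of the members was 0.43, against 0.00 for all genes. RNU5A-1 rose most. The mean count and fold change of the authors' deposited table imply group means of 690 normalized counts with auxin, against 312 without it. Its log2 change was 1.15 (95% interval 0.94 to 1.35, adjusted p = 8.79e-27) per the authors' deposited table. No values of single libraries were used for the auxin series, so the overlap of the groups is not described. Counts over the annotated bases hold mature RNA and longer precursors alike, and their parts in the rise were not tested. In cultures sequenced in bulk, a change in few cells and a smaller one in every cell cannot be told apart.

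RNU5B-1 rose by 0.68 on the log2 scale (0.42 to 0.93, adjusted p = 1.68e-06), RNU5F-1 by 0.43 (0.18 to 0.69, adjusted p = 0.00322) and RNU5D-1 by 0.37 (0.12 to 0.62, adjusted p = 0.0111) per the authors' deposited table. The implied means per the authors' deposited table were 420 with and 263 without auxin for RNU5B-1, 391 with and 289 without it for RNU5F-1, and 379 with and 294 without it for RNU5D-1. RNU5E-1 did not pass the test at 0.36 (-0.21 to 0.93, adjusted p = 0.352), with means of 531 with and 414 without auxin per the authors' deposited table. Its interval was the widest of the 5 and held the estimates of RNU5B-1, RNU5D-1 and RNU5F-1. In the order of the changes, the interval of RNU5A-1 did not overlap that of RNU5B-1, and every later neighbour overlapped the next.

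After 12 h of auxin all 5 U5 genes rose per the authors' deposited table, where 21.9% of 14485 genes tested rose. The changes were from 3.04-fold to 6.42-fold, with a median log2 change of 2.01, against 0.01 for all genes. A log2 change at least as large as the lowest of the 5 was listed for 4.79% of all genes. RNU5B-1 had the highest change, 2.68 (95% interval 2.32 to 3.05, adjusted p = 1.60e-45), with implied means of 315 normalized counts with auxin and 49.1 without it per the authors' deposited table. RNU5F-1 had 2.60 (2.15 to 3.05, adjusted p = 2.36e-28), with 201 with and 33.0 without auxin per the authors' deposited table. Between neighbours in this order all intervals overlapped. Further apart, the interval of RNU5B-1 lay above those of RNU5A-1 (1.62 to 2.28) and RNU5E-1 (1.30 to 1.91). That of RNU5F-1 lay above that of RNU5E-1. Differences between members were not tested.

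RNU5D-1 rose by 2.01 (1.62 to 2.40, adjusted p = 2.06e-22) and RNU5A-1 by 1.95 (1.62 to 2.28, adjusted p = 1.49e-29) on the log2 scale per the authors' deposited table. The implied means were 234 with and 58.0 without auxin for RNU5D-1, and 499 with and 129 without it for RNU5A-1, per the authors' deposited table. RNU5E-1, which missed the threshold at 4 h, rose by 1.61 (1.30 to 1.91, adjusted p = 5.41e-24), with means of 385 with and 127 without auxin per the authors' deposited table. Auxin over no auxin was taken for the 12 h fold change as for that of 4 h, with which it correlated across 8306 genes (Pearson's r = 0.83, a description). No reading of the deposited expression column matched at 12 h. On the log2 scale the reading used, as the group without auxin (denominator), missed by a median of 0.155, against 0.00048 at 4 h. Read as the group with auxin (numerator), the column came closer at 12 h, at 0.0784 with equal library numbers and 0.0588 at best. The direction of all 12 h changes thus rests on the correlation alone, and the column does not settle it. The implied group means at 12 h, and their order per length, are therefore unchecked.

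Per length, RNU5A-1 with auxin was at an implied 595 normalized counts per 100 bases at 4 h per the authors' deposited table, and RNU5E-1 followed at 442. RNU5B-1 (362), RNU5F-1 (334) and RNU5D-1 (327) came next per the authors' deposited table. Without auxin at 4 h, RNU5E-1 was first at 345 and RNU5A-1 second at 269 per the authors' deposited table. At 12 h the order with auxin was RNU5A-1 (430), RNU5E-1 (321), RNU5B-1 (271), RNU5D-1 (202) and RNU5F-1 (172), and without auxin RNU5A-1 (111) and RNU5E-1 (106) lay side by side per the authors' deposited table. No spread between libraries is known for these levels, so neighbours in the order were not tested. The 2 series were scaled separately, and levels cannot be compared between them.

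**Figure D3:**
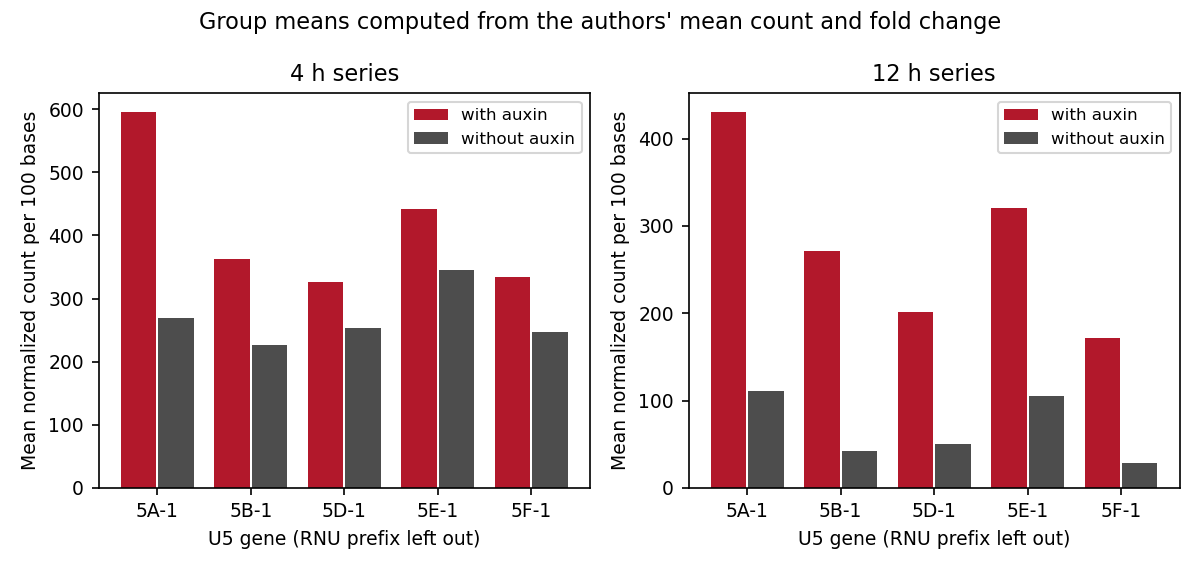
Mean normalized counts per 100 bases (vertical axes) of the 5 U5 genes with auxin (red, left bars) and without it (grey, right bars) in the 4 h and 12 h series, computed from the authors' mean count and fold change, with no error known and with the 12 h means unchecked. RNU5A-1 is highest with auxin in both panels, at 595 and 430, and the panels are scaled separately.

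Whether the auxin effect at 12 h exceeded that at 4 h was examined by a Wald z test on the authors' log2 fold changes, with Benjamini-Hochberg adjustment over 14460 genes. The 12 h effect was larger for 5 of 5 members, where 6.33% of all genes had a larger log2 change at 12 h past the same threshold. RNU5F-1 differed most, by 2.17 ± 0.26 (SE, adjusted p = 4.99e-14) on the log2 scale, followed by RNU5B-1 at 2.01 ± 0.23 (adjusted p = 3.94e-16). RNU5D-1 differed by 1.64 ± 0.24 (adjusted p = 5.02e-10) and RNU5E-1 by 1.25 ± 0.33 (adjusted p = 0.00231). RNU5A-1, which had risen most at 4 h, differed least, by 0.81 ± 0.20 (adjusted p = 0.000917). Each time has its own libraries without auxin, and time and series cannot be told apart. The test also takes the 12 h fold change as auxin over no auxin, a direction that rests on the correlation with 4 h.

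New RNA, from a transient transcriptome assay (TT-seq) that labels RNA as it is made, is listed for 4 h in 2 further comparisons, loss of INTS1 and loss of INTS8. The libraries behind them are not analysed here, so these values are a description. For INTS1, 5 of 5 U5 genes were higher per the authors' deposited table, where 13.3% of 13876 genes were higher and 10.7% lower. The log2 change was 1.22 for RNU5A-1 (95% interval 0.999 to 1.43), 0.91 for RNU5B-1 (0.67 to 1.15), 0.76 for RNU5E-1 (0.53 to 0.99), 0.46 for RNU5D-1 (0.23 to 0.69) and 0.36 for RNU5F-1 (0.14 to 0.58) per the authors' deposited table. The adjusted p ranged up to 0.00747 (RNU5F-1) per the authors' deposited table. RNU5A-1 and RNU5B-1 led here as in total RNA at 4 h, and RNU5E-1, not called in total RNA at that time, came next.

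For INTS8, 3 of 5 members were higher per the authors' deposited table, where 6.56% of 13592 genes were higher and 2.87% lower. RNU5B-1 had 0.66 (0.41 to 0.92, adjusted p = 1.32e-05), RNU5A-1 0.65 (0.42 to 0.88, adjusted p = 2.27e-06) and RNU5E-1 0.44 (0.20 to 0.69, adjusted p = 0.00810) per the authors' deposited table. RNU5D-1, at 0.29 (0.03 to 0.55, adjusted p = 0.181), and RNU5F-1, at 0.12 (-0.14 to 0.37, adjusted p = 0.694), did not pass the test per the authors' deposited table. The same 2 genes had the smallest log2 changes in new RNA for INTS1. For INTS8 the deposited expression column matched the numerator group, with a median error of 0.00102 on the log2 scale (0.110 for the denominator). At 4 h and in new RNA for INTS1 it matched the denominator instead (0.00048 and 0.00131). If the column held the same kind of group throughout, the INTS8 changes would have the opposite sign. The direction used here was taken from the correlation of the INTS8 changes with the 4 h changes across 8306 genes (Pearson's r = 0.83), and it is not settled.

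**Figure D4:**
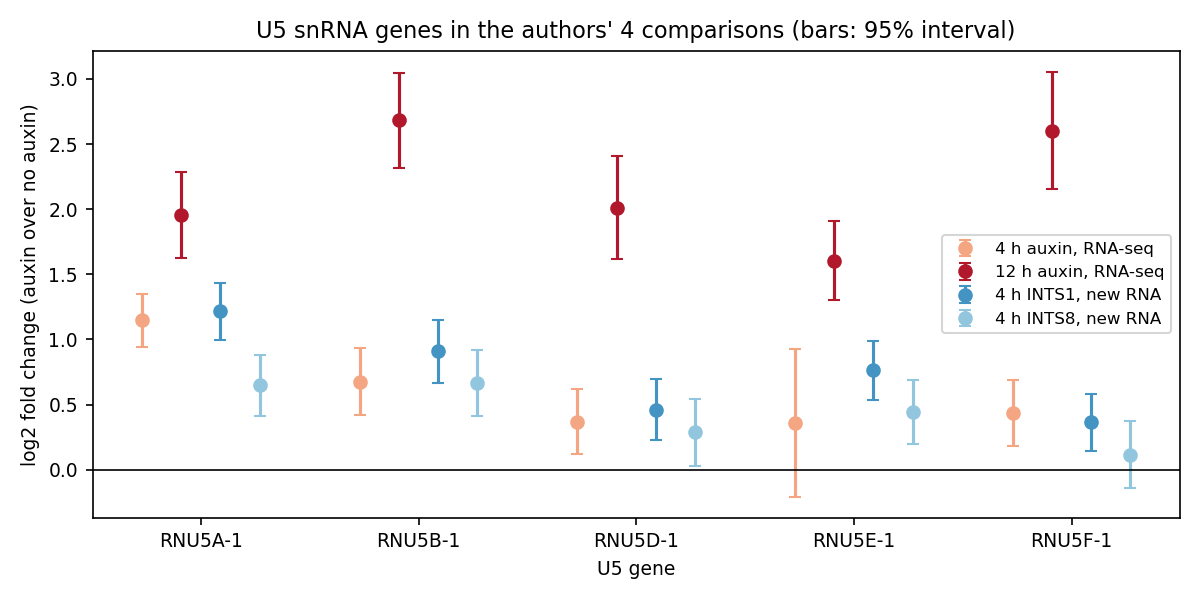
The log2 fold change (vertical axis) of each U5 gene (horizontal axis) in the authors' 4 comparisons, total RNA after 4 h and 12 h of auxin and new RNA after 4 h of INTS1 or INTS8 loss, with 95% intervals that the p-values imply. The 12 h points lie between 1.61 and 2.68 and are the highest for all 5 genes.

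A pair of annotated U5 pseudogenes with reads was set beside the members. RNU5E-4P, which lies 1536 bases from RNU5E-1 on the opposite strand, had 126, 121 and 142 normalized counts in INTS1-AID libraries, against 80.7, 108 and 13.5 in parental ones. Those lines did not overlap, as holds for 30.7% of all tested genes, and the limma adjusted p was 0.329. RNU5A-8P had 90.0, 127 and 115 in INTS1-AID libraries, against 101, 103 and 24.8 in parental ones. In the authors' deposited table RNU5A-8P had a log2 change of 0.31 (adjusted p = 0.192) after 4 h and 2.26 (adjusted p = 1.92e-22) after 12 h. RNU5E-4P had 0.47 (adjusted p = 0.0305) and 1.40 (adjusted p = 2.02e-09) per the authors' deposited table. In new RNA, RNU5E-4P had 0.04 for INTS1 (adjusted p = 0.860) and -0.30 for INTS8 (adjusted p = 0.0697) per the authors' deposited table. RNU5A-8P had 0.78 for INTS1 (adjusted p = 2.46e-08) and 0.31 for INTS8 (adjusted p = 0.188) in new RNA per the authors' deposited table. Of 87 windows of 30 bases in RNU5A-1, 18 occur in RNU5E-4P and 10 in RNU5A-8P, so these values share reads with the members to an unknown extent.

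The other snRNA genes that Pol II transcribes moved the same way. At 12 h 19 of 23 rose and 0 fell per the authors' deposited table, with a median log2 change of 1.65, and at 4 h 11 of 23 rose and 0 fell, with a median of 0.41. Of all genes 21.9% rose at 12 h and 19.2% at 4 h. Among the genes called at 12 h, the largest changes were those of the U1 genes RNU1-2 at 2.64 ± 0.24 (implied SE, adjusted p = 1.44e-27), RNU1-4 at 2.56 ± 0.41 (adjusted p = 2.93e-09) and RNU1-1 at 2.15 ± 0.23 (adjusted p = 8.53e-19) per the authors' deposited table. Among the genes called at 4 h, the largest changes were those of the variant U1 genes RNVU1-8 at 1.19 ± 0.15 (adjusted p = 6.14e-15), RNVU1-4 at 1.17 ± 0.16 (adjusted p = 1.41e-12) and RNVU1-3 at 1.08 ± 0.22 (adjusted p = 6.77e-06) per the authors' deposited table. The 12 h effect exceeded the 4 h effect for 17 of 23 in the Wald test, with a median difference of 1.11 on the log2 scale, beside 1.64 for the U5 genes. In new RNA 10 of 22 rose for INTS1 and 6 of 22 for INTS8 per the authors' deposited table, beside 13.3% and 6.56% of all genes. RNU1-2 led both, at 0.79 (adjusted p = 1.26e-07) and 0.85 (adjusted p = 1.76e-07) per the authors' deposited table. In untreated cells 1 of 18 was called, RNVU1-6, at 1.23 ± 0.22 (limma adjusted p = 0.0340), where 2.22% of all genes were called. The median log2 change of these 18 genes for INTS1-AID over parental cells was 0.59, against 0.005 for all genes, with parental library 3 included. Many of these genes are near-identical copies too.

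The U6 and U6atac genes, which Pol III transcribes and Integrator does not cleave, are sparse in these tables. At 4 h 0 of 5 were called, and at 12 h, where 21.9% of all genes rose, 2 of 5 rose per the authors' deposited table. These were RNU6-2 at 1.80 ± 0.29 (adjusted p = 6.62e-09) and RNU6ATAC at 1.24 ± 0.31 (adjusted p = 0.000260) per the authors' deposited table. The 12 h against 4 h difference of RNU6-2 was 1.28 (Wald adjusted p = 0.0592) and that of RNU6ATAC 1.01 (Wald adjusted p = 0.0630). RN7SK, the abundant Pol III small RNA, had 0.08 ± 0.04 (adjusted p = 0.108) at 4 h and 0.40 ± 0.12 (adjusted p = 0.00347) at 12 h per the authors' deposited table.

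**Figure D5:**
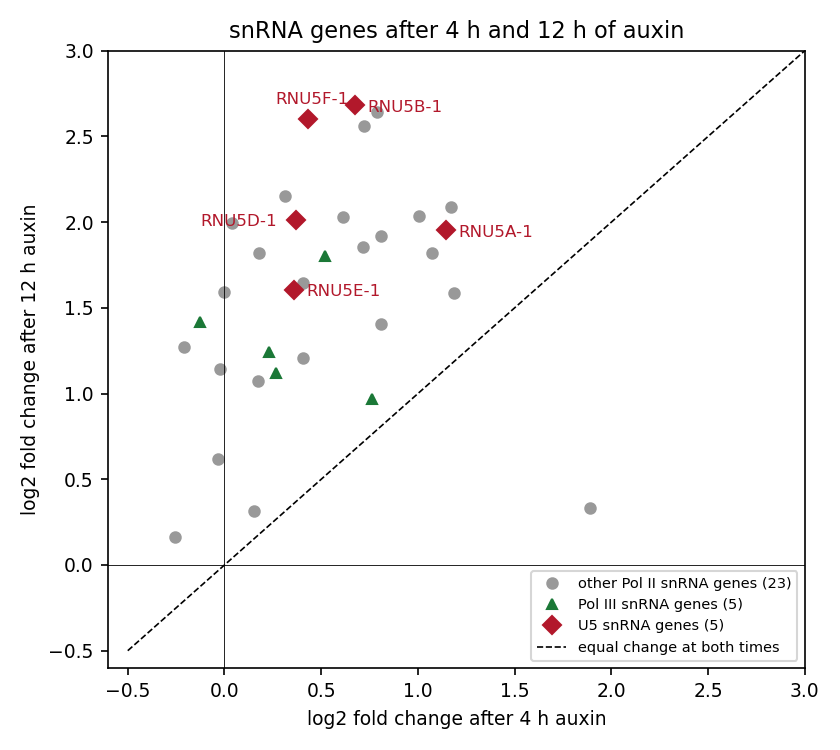
The authors' log2 fold change of snRNA genes after 4 h (horizontal axis) and 12 h (vertical axis) of auxin, with the 5 U5 genes as red diamonds, 23 other Pol II snRNA genes as grey circles and 5 Pol III snRNA genes as green triangles. All 5 U5 genes lie above the dashed line of equal change, between 1.61 and 2.68 at 12 h.

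Of the 8 protein genes of the U5 particle, 0 were called higher in total RNA at 4 h or 12 h. With so few genes, this was not tested against the shares of all genes. At 4 h 0 of 8 rose and 3 fell per the authors' deposited table, with a median log2 change of -0.08. DDX23, a helicase that helps release U1 from the 5′ splice site, had -0.51 ± 0.05 (implied SE, adjusted p = 8.81e-24) per the authors' deposited table. PRPF6, a bridge between the tri-snRNP particles, had -0.30 ± 0.06 (adjusted p = 1.30e-06), and SNRNP40, a WD-repeat protein, had -0.27 ± 0.05 (adjusted p = 9.49e-08) per the authors' deposited table. At 12 h 2 of 8 fell and 0 rose, DDX23 at -0.72 ± 0.10 (adjusted p = 1.89e-12) and SNRNP40 at -0.32 ± 0.09 (adjusted p = 0.00178), per the authors' deposited table. In new RNA DDX23 fell for INTS1, at -0.49 ± 0.12 (adjusted p = 0.000366), and 0 of 8 were called for INTS8, per the authors' deposited table. In untreated cells 0 of 8 were called. For comparison, 19.2% of all genes rose and 19.2% fell at 4 h, 21.9% rose and 22.3% fell at 12 h, and 2.22% were called in untreated cells. The same shares stand beside the counts of the lists that follow.

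Of 8 assembly factors of the U5 particle, ZNHIT2 fell at 4 h (-0.45 ± 0.11, adjusted p = 0.000158) and rose at 12 h (0.53 ± 0.14, adjusted p = 0.000615) per the authors' deposited table. It encodes a cofactor that links U5 proteins to the R2TP chaperone, and in new RNA for INTS8 it was lower, at -0.72 ± 0.23 (adjusted p = 0.0260), per the authors' deposited table. ECD, another R2TP partner, rose at 12 h (0.26 ± 0.10, adjusted p = 0.0279) per the authors' deposited table. Of the 7 Sm ring genes 0 were called at 4 h, and at 12 h SNRPD1 alone fell, by 0.20 on the log2 scale (adjusted p = 0.0477), per the authors' deposited table.

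Among 13 genes of the SMN complex and of Sm methylation, which load the Sm ring onto snRNA, 1 rose and 1 fell at 4 h and 4 rose and 1 fell at 12 h per the authors' deposited table. These counts stand beside 19.2% of all genes higher and 19.2% lower at 4 h, and 21.9% higher and 22.3% lower at 12 h. GEMIN6 rose at both times, by 0.25 ± 0.07 (adjusted p = 0.00167) and 0.34 ± 0.10 (adjusted p = 0.00293), and GEMIN7 fell at 4 h (-0.31 ± 0.08, adjusted p = 0.00136) per the authors' deposited table. DDX20 rose at 12 h (0.62 ± 0.11, adjusted p = 2.83e-08) and GEMIN2 fell (-0.43 ± 0.12, adjusted p = 0.00142) per the authors' deposited table. PRMT5, which methylates Sm proteins, was lower in new RNA for INTS1 (-0.29 ± 0.11, adjusted p = 0.0332) per the authors' deposited table. In untreated cells GEMIN5, which recognises snRNA, was higher in INTS1-AID cells by 0.47 ± 0.07 (limma adjusted p = 0.0244).

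Of 6 genes for the cap, export and import of snRNA, PHAX, the export adaptor, fell at 4 h (-0.38 ± 0.06, adjusted p = 1.11e-10) and at 12 h (-0.49 ± 0.13, adjusted p = 0.000928) per the authors' deposited table. In untreated cells PHAX was higher in INTS1-AID than in parental cells, by 0.54 ± 0.07 (limma adjusted p = 0.0165). XPO1, the export receptor, had -0.10 ± 0.04 at 4 h (adjusted p = 0.0142), and SNUPN, the import adaptor, rose by 0.31 ± 0.10 at 12 h (adjusted p = 0.00781) per the authors' deposited table. NCBP1, the large cap-binding subunit, was higher in new RNA for INTS1 (0.38 ± 0.10, adjusted p = 0.00176) per the authors' deposited table.

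Of 11 genes for factors that transcribe snRNA genes, 3 rose and 5 fell at 4 h and 2 rose and 2 fell at 12 h per the authors' deposited table. Over all genes the shares were 19.2% higher and 19.2% lower at 4 h, and 21.9% higher and 22.3% lower at 12 h. SNAPC2, a subunit of the snRNA promoter-binding complex, rose at both times, by 0.45 ± 0.16 (adjusted p = 0.0174) and 0.61 ± 0.14 (adjusted p = 6.42e-05), per the authors' deposited table. ZNF143, which binds snRNA enhancers, fell at 4 h (-0.48 ± 0.09, adjusted p = 2.56e-07), as did the elongation factor ELL (-0.37 ± 0.11, adjusted p = 0.00164), per the authors' deposited table. At 12 h SNAPC3 fell (-0.58 ± 0.12, adjusted p = 1.58e-05) and SNAPC5 rose (0.34 ± 0.11, adjusted p = 0.00497) per the authors' deposited table. In new RNA ICE2, of the little elongation complex, was higher for INTS1 (0.51 ± 0.12, adjusted p = 0.000258) and INTS8 (0.51 ± 0.11, adjusted p = 5.44e-05), and so was SNAPC1 (0.43 ± 0.15, adjusted p = 0.0248, and 0.45 ± 0.12, adjusted p = 0.00382), per the authors' deposited table. SNAPC3 was lower in new RNA for INTS1 (-0.43 ± 0.13, adjusted p = 0.00589) per the authors' deposited table. In untreated cells ICE1 was the 1 gene called, higher in INTS1-AID cells by 0.49 ± 0.07 (limma adjusted p = 0.0214).

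Of 5 genes for the 3′ end of snRNA, INTS11, the Integrator endonuclease, fell at 4 h (-0.24 ± 0.07, adjusted p = 0.00261) and at 12 h (-0.44 ± 0.11, adjusted p = 0.000334) per the authors' deposited table. INTS4, its partner in the cleavage module, rose at 12 h (0.43 ± 0.10, adjusted p = 8.83e-05) per the authors' deposited table. Of 8 proteins of U4/U6 and the tri-snRNP, 1 rose and 3 fell at 4 h, led by SART1 (-0.27 ± 0.08, adjusted p = 0.00226), and at 12 h PRPF31, a U4-binding protein, fell (-0.53 ± 0.10, adjusted p = 4.56e-07), per the authors' deposited table.

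The marker genes of embryonic kidney, adrenal and neural cells moved as well. At 4 h 7 of 12 rose and 0 fell, and at 12 h 6 rose and 2 fell, per the authors' deposited table. Of all genes 19.2% rose and 19.2% fell at 4 h, and 21.9% rose and 22.3% fell at 12 h. NEFM, a neurofilament gene, had 1.20 ± 0.09 (adjusted p = 5.79e-37) at 4 h and 3.24 ± 0.10 (adjusted p = 7.91e-238) at 12 h, and CORO1A, a blood marker, had 1.54 ± 0.17 (adjusted p = 2.64e-18) and 3.49 ± 0.17 (adjusted p = 2.29e-96), per the authors' deposited table. Their part in the change of the U5 genes was not tested.

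By likeness over the 6 untreated libraries, the genes closest to the mean U5 profile were E2F6 (Pearson's r = 0.9996), TIMM10B (0.996), SCG5 (0.995), MPLKIP (0.994) and GCLM (0.993), out of 13288 genes ranked. The libraries share their scaling and parental library 3, and the values are a description. After 12 h of auxin these 5 genes did not move with the U5 genes, with log2 changes from -0.36 (GCLM, adjusted p = 0.0103) to 0.43 (SCG5, adjusted p = 0.750) per the authors' deposited table. Among the members, RNU5A-1 and RNU5B-1 (r = 0.932) varied most alike across the 6 libraries, all but level with RNU5B-1 and RNU5D-1 (r = 0.928). RNU5E-1 and RNU5F-1 varied least alike (r = -0.17).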

How the data were processed

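Human total RNA was depleted of ribosomal RNA and sequenced with strand kept by dUTP, using either of 2 kits, per the labels' protocols. STAR 2.7.3a, DESeq2 (no version) and both hg38 and dm6 stand in the submitters' processing notes. The sources used here give neither the counting tool nor its strand setting. All members and lists were chosen with earlier results of these data known.

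The signal values are normalized counts that the authors deposited for the 6 untreated libraries. Read counts were recovered from them (100% of the values whole within 0.001 reads). The log2 fold changes, p-values and adjusted p-values of the 4 h, 12 h and new RNA comparisons are the authors', per the file headers, and so are linear fold ratios and −log10 adjusted p-values, which were not used. Score columns hold the authors' mean counts and calls, per the file headers. Other columns of the deposited tables hold the authors' log2 expression and transcript lengths. The headers of the untreated table name another assay, but its fold changes are those of INTS1-AID over parental cells.

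The 4 h fold changes were read as auxin over no auxin, because the deposited expression column then matched with a median error of 0.00048 on the log2 scale (at least 0.0133 otherwise). Group means follow from mean count, fold change and library number. Standard errors were taken from fold change and p (largest relative difference from the listed ones in the untreated lines 2.04e-12).

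Untreated lines were compared with limma 3.58.1 in R 4.3.3 (trend, robust) on log2(normalized count + 1) for genes with a mean of at least 10. The deposited unit is a normalized count, so a count test was an alternative only: edgeR 4.0.16 and DESeq2 1.42.0 ran on recovered reads. The Wald test used SciPy 1.17.1. All p-values were adjusted over all genes. Other alternatives were pseudocounts of 0.1 and 10, no filter or a mean of at least 50, library totals, FDR 0.01, GC trend removal (lowess, span 0.3), the replicate block, leaving out each library, and centring. Named genes were all members, up to 3 called genes with the largest change per list and comparison, INTS1, and the 5 genes most alike. Genes outside that rule (PARP16, ARMH1, RN7SK, the pseudogenes) were chosen as neighbours or controls. Lengths, GC content and identities come from GENCODE v29 transcripts, matched by identifier (14523 of 14538 genes), and the sequences themselves are not reported here. No sample was missing for any column of library values (0 columns).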

Additional observations from a re-analysis of the deposited data

Results flagged for a closer look

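The effect of auxin on the U5 genes differed between the times. By the Wald test of the difference itself, the log2 change was larger at 12 h than at 4 h by 2.17 for RNU5F-1, 2.01 for RNU5B-1, 1.64 for RNU5D-1, 1.25 for RNU5E-1 and 0.81 for RNU5A-1. The median difference was 1.64 for the 5 genes, 1.11 for 23 other Pol II snRNA genes and -0.03 for all 14460 genes. The series have separate libraries without auxin, and their part in the difference was not tested. The difference holds for the direction taken at 12 h, which the deposited expression column does not settle.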

How the results depend on the processing

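None of the U5 genes was called between the untreated lines under any alternative run (0 of 5 in each, also with any 1 library left out). Leaving out 1 library gave log2 changes of 0.29 to 0.66 for RNU5A-1, 0.13 to 0.63 for RNU5B-1, 0.0019 to 0.32 for RNU5D-1, -0.21 to 0.08 for RNU5E-1 and 0.16 to 1.31 for RNU5F-1. RNU5E-1 reversed, to 0.0763, without INTS1-AID library 1 (adjusted p = 0.825). The cause was not tested. The count over all genes, 295, was less steady, at 1 to 2432 with 1 library left out (2432 without parental library 3), 6 with the replicate block, 829 with DESeq2, 307 with edgeR, 11 at FDR 0.01 and 1256 with the GC trend removed. Same-numbered libraries did not deviate together (r from -0.11 to 0.00), and differently numbered ones had r from -0.16 to 0.15. With 3 libraries per line and the GC trend of parental library 3, these correlations cannot show whether the numbers mark a shared batch. Under the replicate block 0 of 5 U5 genes were called. At 4 h RNU5D-1 (adjusted p = 0.0111) is lost at a threshold of 0.01, which leaves 3 of 5 genes. Centring and the filter on mean counts changed no call of a member at 4 h or 12 h, nor did centring in new RNA, and the stricter threshold changed none at 12 h, in new RNA or in the difference between the times. The threshold of 0.01 and the centring in new RNA were added after seeing the data. No depth is known for the auxin series, and 45 reads of RNU5F-1 in parental library 3 limit its untreated change.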

Other observations

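The ratios between U5 genes in untreated cells were computed after the levels were seen and are given as a description. Per base, RNU5A-1 was at 1.20, 1.10 and 1.22 times RNU5E-1 in INTS1-AID libraries 1, 2 and 3, against 0.889, 0.921 and 0.597 times in parental libraries 1, 2 and 3. The lines did not overlap, with or without parental library 3. Of all 10 pairs, 4 did not overlap, the others being RNU5A-1 to RNU5D-1, RNU5B-1 to RNU5D-1 and RNU5B-1 to RNU5E-1, each higher in INTS1-AID libraries. RNU5A-1 to RNU5F-1 and RNU5B-1 to RNU5F-1, also a gene of chromosome 15 over one of chromosome 1, overlapped (exact two-sided permutation p = 0.7 and 0.5). The pairs share genes, the share of gene pairs at large that do not overlap was not computed, and 30.7% of single genes do not overlap. The exact two-sided permutation test gave 0.1 for each of the 4 pairs, the smallest p it can give with 3 against 3 libraries, so it does not show a difference.

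RNU5E-1 made up 41.6% of the U5 sum in parental library 3 and 23.1% to 28.2% in the other 5 libraries, while RNU5F-1 made up 4.86% there and 13.4% to 20.01% elsewhere.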
